A study of Homo sapiens with 24 samples.

Results

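The lineage factors of the breast epithelium described here were 9 transcription factors, chosen by gene symbol from all 4 deposited expression tables and followed over all 8 conditions of the series. They were the luminal factors ESR1, PGR, GATA3 and FOXA1, the luminal progenitor factor ELF5, and the basal or basal-like factors TP63, SOX10, FOXC1 and EN1. The 4 tables together held 66659 gene symbols. The rule used gene symbols and no measured value, although the set was drawn up with earlier results of these data known.

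Gene expression had been profiled by RNA-Seq in 24 libraries of 3 triple-negative breast cancer (TNBC) cell lines, with 3 libraries in each condition. Hs578T and HCC70 cells of WT genotype were sorted into breast cancer stem cells (BCSCs), marked as CD24-CD44+ and ALDH+, and non-BCSCs lacking both markers. MDA-MB-231 cells carried either a control sgRNA (sgCtrl) or KIF20A sgRNA #1 (KIF20A sg1), given by lentivirus and labelled as KIF20A knockdown, so that depletion rests on 1 guide. A second MDA-MB-231 experiment compared an empty control vector (EV) with KIF20A overexpression (KIF20A OE).

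The mammary epithelium has an inner luminal and an outer basal layer. The estrogen receptor ESR1, its target and partner PGR, the zinc-finger factor GATA3 and the forkhead pioneer factor FOXA1 maintain the hormone-sensing luminal state, and the ETS factor ELF5 drives the alveolar progenitor. The transcription factor TP63 maintains basal cells, whereas SOX10, the forkhead factor FOXC1 and the homeobox factor EN1 mark basal-like tumors. By definition, TNBC lacks the estrogen and progesterone receptor proteins.

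All 3 libraries labelled KIF20A OE went against their cell line label. CD44, a surface glycoprotein that is abundant in MDA-MB-231, had counts-per-million (CPM) values of 788, 615 and 523 in EV, while the 3 labelled KIF20A OE libraries held 0.125, 0.316 and 1.23 CPM. In this comparison limma called 46.2% of 15265 genes higher and 23.4% lower. Of 11 embryonic kidney and HEK293 genes, 9 were higher and 1 (PAX8) was lower in the labelled KIF20A OE libraries, and the list summed to between 108 and 118 CPM in EV but to between 1897 and 2455 CPM in the labelled libraries. CDKN2A, IRS4, LIN28B, NEFL and PAX2 were at 0 in every EV library, while no gene of the list was at 0 throughout the labelled KIF20A OE group. Of 12 mesenchymal and claudin-low genes, 7 were lower and 4 higher there. Their sums were 6545 to 7492 CPM in EV and 730 to 1173 CPM in the labelled libraries. Both lists were drawn up with earlier results of these data known. Their counts and sums are a description and no independent test. KIF20A itself was at 101, 143 and 124 CPM in EV, against 1348, 269 and 896 CPM under the KIF20A OE label. An effect of KIF20A and a difference in cell identity cannot be told apart in this comparison, so these libraries are named by their label throughout.

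Of the 9 factors, 7 had promoter windows in the RefSeq-based set used here (GRCh38.p14), 19 windows in all. Each ran from 250 bases before to 50 bases after a transcription start. EN1 and SOX10 had none in that set, so their promoters were not examined. FOXA1 and FOXC1 are shown because they were among the members that differed most between EV and the labelled KIF20A OE libraries. TP63 is shown because both count tests without a minimum, chosen after seeing the data, called it lower in Hs578T BCSCs. Capitals mark the forkhead core TGTTTNC on either strand, which 18.0% of the 35116 windows of this length contain.
FOXA1: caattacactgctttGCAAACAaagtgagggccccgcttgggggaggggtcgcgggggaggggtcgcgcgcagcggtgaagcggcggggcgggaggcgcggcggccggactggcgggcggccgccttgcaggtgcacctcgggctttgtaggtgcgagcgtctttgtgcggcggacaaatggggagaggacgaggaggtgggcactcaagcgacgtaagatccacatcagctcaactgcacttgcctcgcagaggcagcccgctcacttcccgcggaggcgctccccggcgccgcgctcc
FOXC1: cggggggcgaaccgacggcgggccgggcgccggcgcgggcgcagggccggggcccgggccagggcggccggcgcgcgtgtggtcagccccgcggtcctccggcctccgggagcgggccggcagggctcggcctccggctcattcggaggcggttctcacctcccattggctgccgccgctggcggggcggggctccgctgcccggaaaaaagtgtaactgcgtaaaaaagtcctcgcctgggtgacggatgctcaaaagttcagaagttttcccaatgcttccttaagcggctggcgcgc
TP63: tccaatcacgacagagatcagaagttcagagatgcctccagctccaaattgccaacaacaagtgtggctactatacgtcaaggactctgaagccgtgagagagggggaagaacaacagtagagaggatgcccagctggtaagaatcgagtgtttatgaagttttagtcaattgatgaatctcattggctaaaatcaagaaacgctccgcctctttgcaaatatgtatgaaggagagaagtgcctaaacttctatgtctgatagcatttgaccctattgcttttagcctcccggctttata
The FOXA1 window lies at chr14:37595200-37595499 on the minus strand, the FOXC1 window at chr6:1609665-1609964 on the plus strand and the TP63 window at chr3:189631139-189631438 on the plus strand. The FOXA1 window held 1 forkhead core, and none was found in the FOXC1 and TP63 windows. The TP63 window is the only one of that gene and lies at its 5' end. Any start further inside the gene is not covered. FOXC1 and FOXA1 had CpG-dense windows, with 40 and 34 CpG dinucleotides, against 7 for TP63 and a median of 14.0 over all windows. One further forkhead core stood in the single ELF5 window and 1 in the first of 6 GATA3 windows, with none in the 6 ESR1 and 3 PGR windows. Neither the core motif AGATAA of GATA factors, found in 10.3% of all windows, nor the estrogen response half-site AGGTCA, found in 13.8%, occurred in any of the 19 windows on either strand.

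Across the lines, the factors fell into a set that was readily measured and a set near the counting limit. On a common reads-per-million scale (RPM, from reads recovered out of the deposited values), 5 members had a mean of at least 1 in HCC70 non-BCSCs and 5 in Hs578T non-BCSCs, but 3 did in sgCtrl MDA-MB-231 cells. In the 3 sgCtrl libraries 6 of the 9 members were listed at 0 reads. SOX10 had no row in the Hs578T and HCC70 tables, PGR none in the HCC70 table and ELF5 none in the overexpression table. Those 3 tables listed no gene at 0 in all of their 6 libraries, whereas 31351 of the 60651 rows of the depletion table were at 0 throughout. For the same genes, a count of 0 reads allows up to 3 reads, at most 0.0724 CPM in the depletion libraries and 0.188 CPM in the overexpression libraries. Such limits cover counting error only, and no unique molecular identifiers were used. Of recovered counts of 1 to 20, 68.2% were even in the depletion and 60.3% in the overexpression experiment. The shares were 39.3% in Hs578T and 39.8% in HCC70, which cannot be set against those of the depletion and overexpression experiments. In the sorted lines each gene was recovered alone as the smallest whole counts, which lowers the share of even counts. The reason for the even counts was not tested. Limits and count tests that treat reads as independent may overstate the evidence for low genes in the depletion and overexpression experiments. Whether they do so in the sorted lines cannot be seen from these shares. A read may not be the same unit across experiments.

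**Figure D1:**
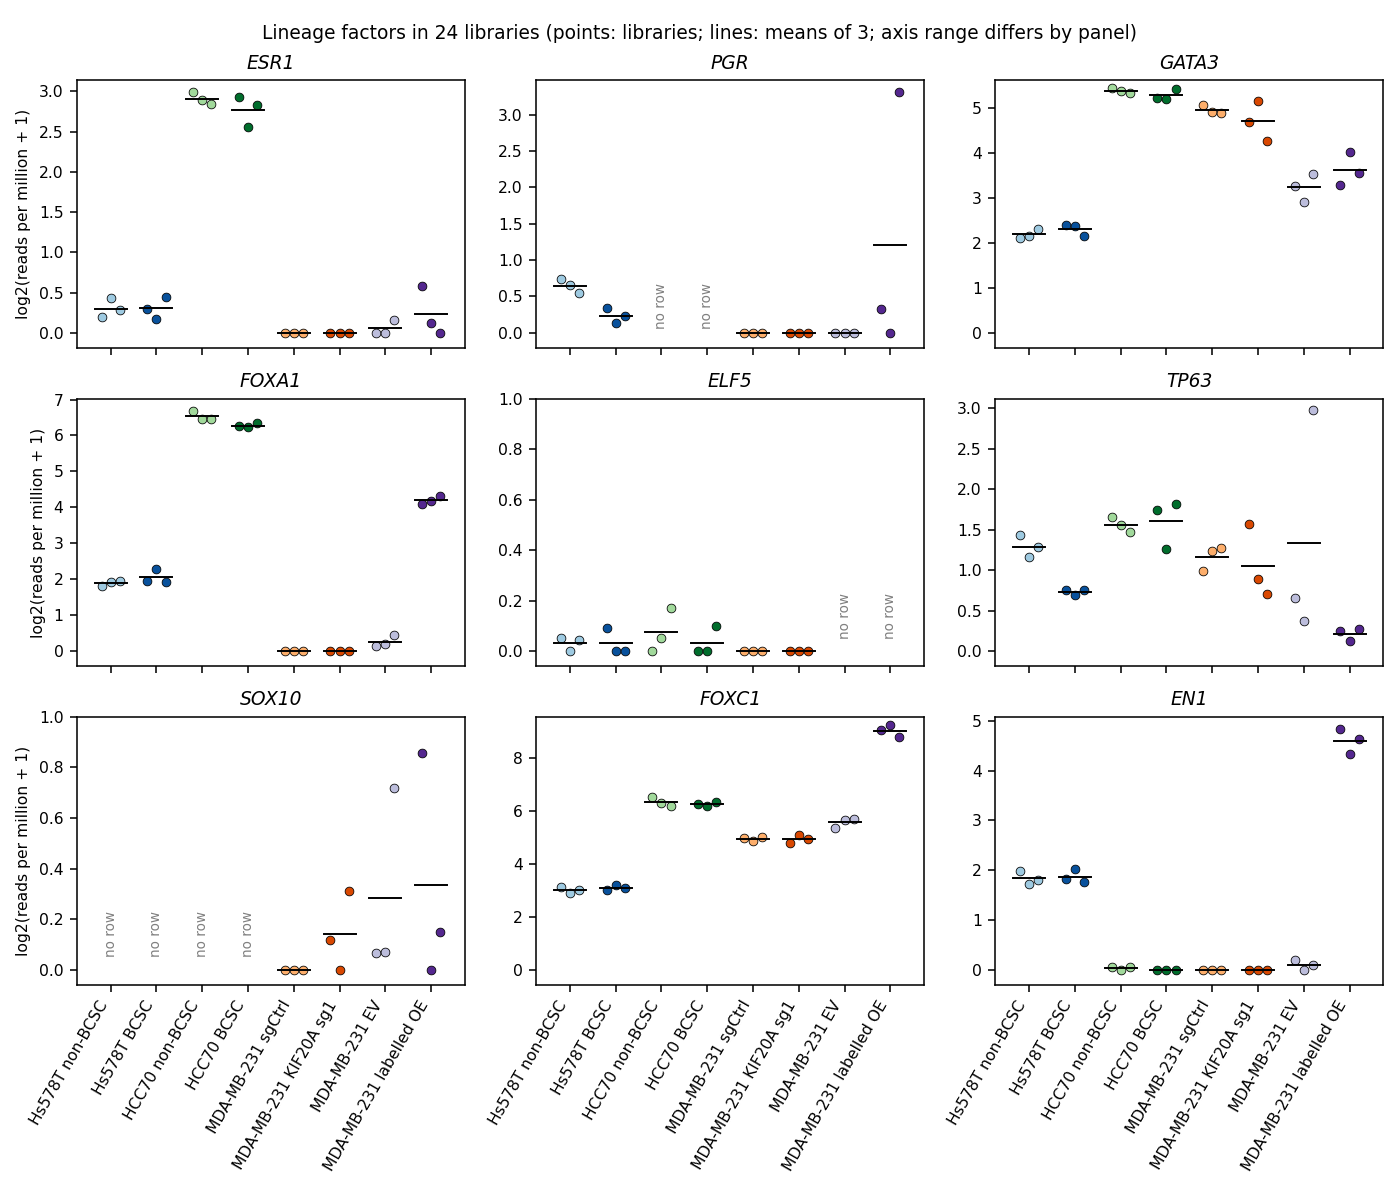
Each panel plots 1 lineage factor as log2(RPM + 1) of the recovered reads in the 24 libraries (y axis) against the 8 conditions (x axis); points are libraries, lines are means of 3, and "no row" marks a table without the gene. FOXC1 was highest in the libraries labelled KIF20A OE, FOXA1, GATA3 and ESR1 were highest in HCC70, and the means of TP63 in EV and PGR in the labelled libraries rested on 1 library each.

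FOXC1 was the only member with a mean of at least 5 RPM in every condition. Its highest level was 529 ± 82.5 RPM (SD, n = 3), under the KIF20A OE label, followed by 81.2 ± 9.62 in HCC70 non-BCSCs, 76.3 ± 4.23 in HCC70 BCSCs, 46.8 ± 5.54 in EV, 29.9 ± 1.41 in sgCtrl, 29.9 ± 3.48 in KIF20A sg1, 7.57 ± 0.504 in Hs578T BCSCs and 7.08 ± 0.655 in Hs578T non-BCSCs. The neighbors within HCC70, within the depletion experiment and within Hs578T overlapped, and the other neighbors in this order did not. Levels across tables are set side by side on the same scale but were normalized and sequenced separately, and table and cell line cannot be told apart.

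Per length of exon, FOXC1 stood at percentile 98.6 of the 13269 genes shared by all tables in the labelled KIF20A OE libraries, at 71.7 in EV, 63.2 in sgCtrl, 76.9 in HCC70 non-BCSCs and 29.5 in Hs578T non-BCSCs. FOXA1 ranged from percentile 80.2 in HCC70 non-BCSCs to 22.4 in Hs578T non-BCSCs and 9.4 in EV, and its level was 0 in sgCtrl. GATA3 lay at percentile 63.1 in HCC70 non-BCSCs, 67.0 in sgCtrl, 38.9 in EV and 24.6 in Hs578T non-BCSCs. Even in HCC70, where its level was highest, ESR1 was at percentile 23.5. TP63 lay at percentile 19.7 or lower in every condition.

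GATA3, the luminal zinc-finger factor, followed another order from FOXC1. It was highest in HCC70 non-BCSCs (40.8 ± 1.80 RPM) and HCC70 BCSCs (37.9 ± 3.48), then sgCtrl (29.97 ± 2.02) and KIF20A sg1 (25.9 ± 8.19), then the labelled KIF20A OE (11.6 ± 3.30) and EV (8.61 ± 2.06), and lowest in Hs578T BCSCs (3.97 ± 0.435) and non-BCSCs (3.57 ± 0.339; SD, n = 3 for each). Only the neighbors from the same experiment overlapped. Both sgCtrl and EV are MDA-MB-231 controls, yet every sgCtrl library was above every EV library for GATA3, and every EV library was above every sgCtrl library for FOXC1.

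HCC70 libraries held luminal and basal-like factors side by side. On the transcripts-per-million (TPM) scale, which takes length into account, FOXA1 was at 66.4 ± 6.78, FOXC1 at 57.3 ± 7.02, GATA3 at 32.3 ± 1.51, ESR1 at 2.27 ± 0.147 and TP63 at 0.729 ± 0.0710 in HCC70 non-BCSCs (SD, n = 3). FOXA1 and FOXC1 overlapped on this scale, with 61.6 to 74.2 and 52.1 to 65.3 TPM. EN1 was limited to 1, 0 and 1 recovered reads in non-BCSCs, with 0 in each BCSC library. These are the smallest whole counts that fit the values, so the true non-BCSC counts may be a multiple. ELF5, with 0, 1 and 4 reads and 0, 0 and 2 reads, was at or near the floor too.

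In Hs578T the measured order per length was different. FOXC1 was at 4.92 ± 0.463 TPM, GATA3 at 2.78 ± 0.220, EN1 at 2.09 ± 0.277, FOXA1 at 1.93 ± 0.130, TP63 at 0.535 ± 0.0888, PGR at 0.104 ± 0.0213 and ESR1 at 0.0806 ± 0.0364 in non-BCSCs (SD, n = 3). The ranges of EN1 and FOXA1 overlapped. Among the cell lines, EN1 was above 2 RPM in Hs578T. It was at 3 recovered reads or fewer in each library of HCC70, sgCtrl, KIF20A sg1 and EV.

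The comparison of sorted fractions asks whether BCSCs differ in lineage factors from non-BCSCs of the same line. In Hs578T, TP63 was lower in BCSCs by both count tests and PGR by edgeR alone, both at low levels, whereas the 4 members above the minimum level gave no call. The count tests that gave these calls had no minimum and were chosen after seeing the data. TP63 was listed at 0.631, 0.456 and 0.516 TPM in non-BCSCs (48, 39 and 47 reads) and at 0.2504, 0.221 and 0.251 TPM in BCSCs (21, 19 and 23 reads). All BCSC libraries were below all non-BCSC libraries. Of the 13324 genes tested by limma in this line, 17.0% were separated in the lower direction. TP63 and PGR lay below the minimum level and were not among them. How often genes as low as these separate was not tested, so that share is not a background for either gene. The mean of TP63 in non-BCSCs was 2.19 times that in BCSCs in RPM. PGR was listed at 0.125, 0.105 and 0.0824 TPM in non-BCSCs (19, 18 and 15 reads) and at 0.0477, 0.0175 and 0.0328 TPM in BCSCs (8, 3 and 6 reads). Again the groups did not overlap, although a library held at most 19 reads. In bulk libraries, fewer cells with a transcript and less transcript per cell cannot be told apart.

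Neither gene reached the mean of 1 TPM that the limma test on log2(TPM + 1) required. Without a minimum, edgeR's quasi-likelihood test on the recovered reads gave a log2 fold change of -1.11 for TP63 (Benjamini-Hochberg adjusted p = 0.0015) and -1.62 for PGR (adjusted p = 0.0096). By that rule 4.87% of the 19283 genes were called lower. DESeq2 gave -1.12 for TP63 (adjusted p = 0.021) and -1.65 for PGR (adjusted p = 0.074), and called 3.55% of genes lower. Limma without a minimum gave adjusted p = 0.029 for TP63 and 0.12 for PGR, and called 2.54% lower. With a minimum of 0.25 TPM, limma gave TP63 a log2 fold change of -0.31 and no call (adjusted p = 0.098). When each library was left out in turn, edgeR kept TP63 under 0.05 in 6 of 6 refits, and PGR lost its call without non-BCSC replicate 1 (adjusted p = 0.060). The exact permutation test of either gene gave p = 0.1, two-sided, the smallest value 3 against 3 libraries allow.

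**Figure D2:**
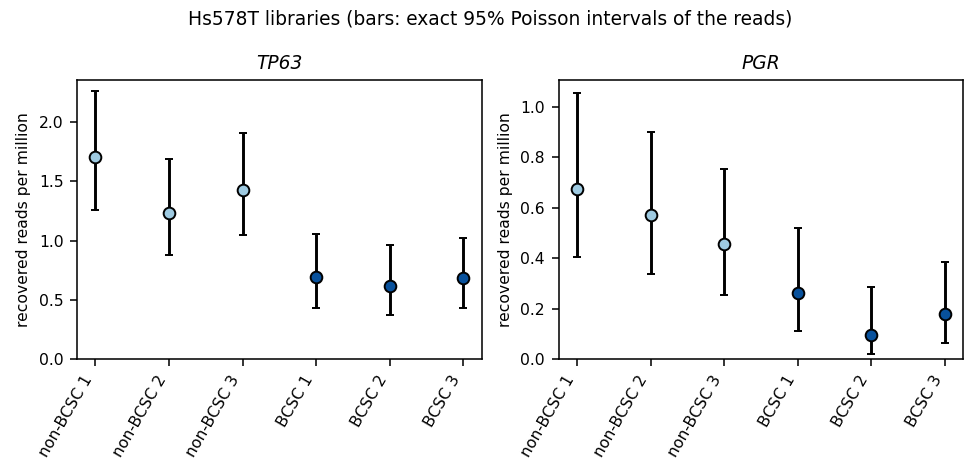
RPM of the recovered reads of TP63 and PGR (y axes, from 0) in the 3 non-BCSC and 3 BCSC libraries of Hs578T (x axes), with exact 95% Poisson intervals of the read counts as bars. For TP63 the non-BCSC libraries lie between 1.23 and 1.70 and the BCSC libraries between 0.620 and 0.694; for PGR they lie between 0.457 and 0.674 and between 0.0979 and 0.264.

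The 4 members tested by limma in Hs578T were FOXC1, GATA3, FOXA1 and EN1, and 0 of the 4 had an adjusted p under 0.05 (0 also at an unadjusted p under 0.05, and 0 of these 4 by edgeR and DESeq2), where 7.15% of 13324 genes did. FOXC1 was at 5.40, 4.47 and 4.88 TPM in non-BCSCs and 4.87, 5.47 and 5.18 TPM in BCSCs, a log2 fold change of 0.06 (SE 0.08). GATA3 was at 2.63, 2.69 and 3.03 TPM against 3.27, 3.16 and 2.71 TPM, a log2 fold change of 0.10 (SE 0.09). FOXA1 was at 1.78, 2.01 and 1.99 TPM against 1.98, 2.67 and 2.00 TPM, with 0.13 (SE 0.11). For EN1 the values were 2.40, 1.88 and 1.98 TPM against 2.00, 2.41 and 1.92 TPM, with 0.01 (SE 0.11). The ranges of all 4 overlapped. ESR1 had 4, 11 and 7 reads in non-BCSCs and 7, 4 and 12 reads in BCSCs. ELF5 had at most 2 recovered reads in a library. For ELF5 these are the smallest whole counts that fit the values, so the true counts may be a multiple.

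HCC70 BCSCs showed lower FOXA1 values than non-BCSCs, on the edge of the test. FOXA1 was listed at 74.2, 61.6 and 63.5 TPM in non-BCSCs and at 56.8, 54.2 and 60.2 TPM in BCSCs, so that every BCSC library was below every non-BCSC library. The log2 fold change was -0.21 (SE 0.08), with an adjusted p of 0.16 from limma and an unadjusted value of 0.030. On recovered reads the same genes gave -0.24 with an adjusted p of 0.067 from edgeR and -0.25 with 0.026 from DESeq2, which called 4.02% of genes lower. Without HCC70 non-BCSC replicate 1, the highest library, the limma estimate was -0.13. Groups were separated in the lower direction for 10.1% of the genes in this line.

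GATA3 was at 34.1, 31.6 and 31.3 TPM in HCC70 non-BCSCs and 30.1, 28.5 and 34.9 TPM in BCSCs, a log2 fold change of -0.06 (SE 0.08). FOXC1 was at 65.3, 54.5 and 52.1 TPM against 55.4, 51.9 and 59.9 TPM, with -0.04 (SE 0.09). ESR1 was at 2.44, 2.20 and 2.17 TPM against 2.39, 1.72 and 2.23 TPM, with -0.07 (SE 0.12). The groups overlapped for these 3 genes. In all, 0 of the 4 members tested by limma passed in HCC70 (1 at an unadjusted p under 0.05, FOXA1, which was also the single call of DESeq2), where 2.83% of 13218 genes did. TP63, under the minimum, was at 0.807, 0.710 and 0.668 TPM in non-BCSCs and 0.914, 0.533 and 0.990 TPM in BCSCs, and its groups overlapped.

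The difference between the fractions was then compared between the lines. In one limma model over the 12 sorted libraries, the change of FOXA1 in HCC70 minus that in Hs578T was -0.34 (SE 0.13, adjusted p = 0.12). For GATA3, FOXC1, ESR1 and EN1 the difference lay between -0.15 and -0.07, with adjusted p of 0.42 or more. None of the 5 members tested passed (1 at an unadjusted p under 0.05), where 8.1% of 13705 genes did. For TP63 the difference between the lines was not tested, since it was under the minimum.

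KIF20A sg1 was compared with sgCtrl to ask whether KIF20A depletion moves lineage factors in MDA-MB-231. The values of this table are reads divided by a library factor, and are given as scaled reads. KIF20A was at 153, 173 and 156 scaled reads in sgCtrl and 122, 145 and 91.1 in KIF20A sg1, a log2 fold change of -0.45 (adjusted p = 0.69). FOXC1 was at 29.7, 28.8 and 31.3 in sgCtrl and 26.6, 34.5 and 29.1 in KIF20A sg1, with a log2 fold change of 0.00 (SE 0.14). GATA3 was at 31.6, 29.3 and 28.9 against 24.8, 35.5 and 18.1, with -0.24 (SE 0.21). TP63 was at 0.965, 1.37 and 1.42 against 1.96, 0.887 and 0.620, with -0.11 (SE 0.24). The KIF20A sg1 libraries spread more widely than the sgCtrl libraries for all 3 genes, and the groups overlapped. With limma 0 of these 3 members passed and 0 of 12852 genes did (0.0%; 899 genes and 0 members at an unadjusted p under 0.05), and edgeR and DESeq2 called none of the members, with or without the minimum. Over all genes edgeR called 0 with the minimum and 113 without it, and DESeq2 called 2 higher and 9 lower with the minimum and 16 in all without it. The limma count moved when single libraries were left out, to 7 genes higher and 137 lower (3111 at an unadjusted p under 0.05) without sgCtrl replicate 3 and to 1 higher and 4 lower without the second KIF20A sg1 column.

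ESR1, PGR, FOXA1, ELF5 and EN1 were listed at 0 in all 6 libraries of the depletion experiment. SOX10, the neural crest and basal-like factor, was at 0 in the 3 sgCtrl libraries and at 4, 0 and 10 reads in the KIF20A sg1 libraries. It shares 260 exon bases with POLR2F on the opposite strand in GENCODE 44, and whether the counting used strand is not given in the sources used here, so reads of the 2 genes cannot be told apart where they overlap.

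In the libraries labelled KIF20A OE, EN1, FOXA1 and FOXC1 were higher than in EV. FOXC1 was listed at 40.5, 49.4 and 50.6 CPM in EV and at 538, 607 and 443 CPM in the labelled libraries. FOXA1 was at 0.0952, 0.145 and 0.353 CPM in EV (2, 3 and 6 reads) and at 16.2, 17.1 and 19.1 CPM in the labelled libraries (258, 380 and 356 reads). EN1 was at 0.143, 0 and 0.0588 CPM in EV (3, 0 and 1 reads) and at 27.5, 19.2 and 23.8 CPM in the labelled libraries. All 3 genes were separated without overlap, as 48.9% of the genes tested were in the higher direction. FOXC1 was 11.3 times as high in mean CPM, FOXA1 88.3 times, and EN1 at least 152-fold higher when each EV library is set to the floor of 3 reads.

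The limma log2 fold changes on log2(CPM + 1), which understates the change of low genes, were 4.51 for EN1 (SE 0.20, adjusted p = 5.5e-07), 3.95 for FOXA1 (SE 0.19, adjusted p = 7.7e-07) and 3.47 for FOXC1 (SE 0.15, adjusted p = 4.6e-07). Thus 3 of the 6 members tested were called, all higher, where 69.7% of 15265 genes were called and 46.2% were called higher. A share of this size is not above the background of the comparison. The median log2 fold change over all genes was 0.37, and 0.04 after scaling by the median of ratios, which left FOXC1 at 3.10, FOXA1 at 3.75 and EN1 at 4.32. With that scaling 5218 genes were higher and 4968 lower, in place of 7055 and 3579.

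**Figure D3:**
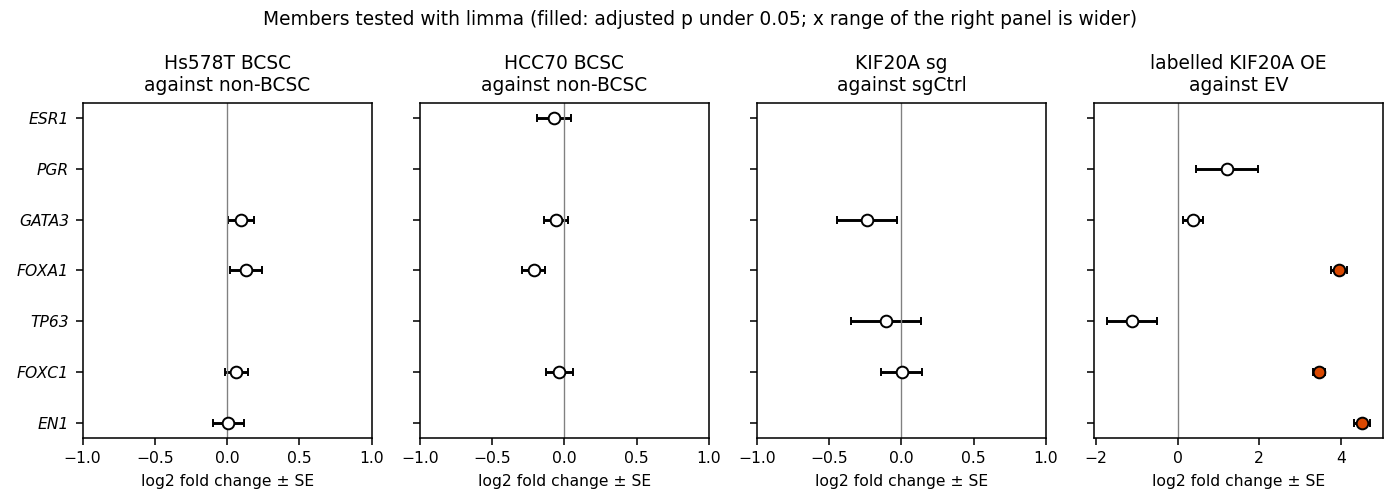
Limma log2 fold changes (x axes, with SE bars) of the members tested in each of the 4 comparisons (panels); filled points have an adjusted p under 0.05. In the sorted and depletion experiments the points lie between -0.24 and 0.13, and in the right panel, whose axis is wider, EN1, FOXA1 and FOXC1 lie at 4.51, 3.95 and 3.47.

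GATA3 was at 8.66, 6.52 and 10.6 CPM in EV and 8.77, 15.2 and 10.7 CPM in the labelled KIF20A OE libraries, and the groups overlapped. Its log2 fold change of 0.38 (SE 0.25, adjusted p = 0.21) lay beside the median of 0.37 over all genes, and was 0.04 after scaling by the median of ratios. TP63 was at 0.571, 0.290 and 6.88 CPM in EV and at 0.188, 0.0902 and 0.214 CPM in the labelled libraries. The groups did not overlap (25.2% of genes were separated in the lower direction), but EV replicate 3 held 117 reads where the other EV libraries held 12 and 6, and TP63 reached the minimum through that library. Its limma log2 fold change was -1.11 (SE 0.60, adjusted p = 0.13). The count tests called it lower (edgeR -4.25, adjusted p = 0.0195). With the minimum, edgeR called 31.7% of genes lower. EdgeR without a minimum gave -1.79 (adjusted p = 0.090) when EV replicate 3 was left out, and adjusted p of 0.050 and 0.059 without KIF20A OE replicates 1 and 2.

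PGR was at 0 throughout EV and at 0.2504, 0 and 8.89 CPM (4, 0 and 166 reads) in the labelled KIF20A OE libraries, so that a single library held nearly all reads. Its limma log2 fold change was 1.21 (SE 0.76, adjusted p = 0.18). EdgeR without a minimum, which called 27.4% of genes higher, gave an adjusted p of 0.048, which was 0.22 without KIF20A OE replicate 3 and 0.080, 0.092 and 0.094 without EV replicates 1, 2 and 3. PGR shares 737 exon bases with the antisense gene PGR-AS1. Values of 1 library at least 2 above both others of its group on the log2(CPM + 1) scale occurred for 57, 32 and 11 genes in EV replicates 3, 1 and 2 and for 7, 5 and 13 genes in KIF20A OE replicates 3, 1 and 2, of 23792 listed. SOX10 had 1, 1 and 11 reads in EV and 13, 0 and 2 reads in the labelled libraries, and ESR1 had 0, 0 and 2 reads against 8, 2 and 0 reads.

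Lists of genes around these factors were described in the same fits. Over all genes, limma called 386 higher (2.9%) and 567 lower (4.26%) in Hs578T. In HCC70 it called 301 higher and 73 lower, 2.83% in either direction. In the labelled KIF20A OE libraries it called 46.2% of genes higher and 23.4% lower. These shares are the background of the list counts below. Of 18 estrogen receptor targets, 12 were tested in Hs578T, and STC2, a secreted glycoprotein, was higher and IGFBP4, an IGF-binding protein, lower in BCSCs (2 of 12 called). STC2 rose from 714 ± 2.32 to 915 ± 23.2 TPM, a log2 fold change of 0.36, and IGFBP4 fell from 116 ± 3.42 to 97.0 ± 4.29 TPM (SD, n = 3). In HCC70, 1 of 14 was called, again STC2, which rose from 38.8 ± 1.18 to 49.5 ± 1.19 TPM (adjusted p = 0.021 from limma, and 0.11 without BCSC replicate 1). In the labelled KIF20A OE libraries 5 of 15 were higher and 5 lower, with a median of -0.12. GREB1, a coactivator of the estrogen receptor, was at 0 in EV and 19.3 ± 4.74 CPM in the labelled libraries, while CCND1 fell from 1127 ± 254 to 38.3 ± 20.4 CPM. ESR1 itself was at 8 reads or fewer in each of these 6 libraries.

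The other luminal genes were called in 1 of 9 tests in Hs578T (KRT18, a simple-epithelial keratin, higher) and in 2 of 16 in HCC70, where the receptor kinase ERBB3 rose from 102 ± 5.93 to 126 ± 1.14 TPM and the prolactin receptor PRLR fell from 12.8 ± 0.948 to 9.21 ± 0.832 TPM. In the labelled KIF20A OE libraries 9 of 15 were lower and 3 higher, with a median of -1.70, where 23.4% of all genes were lower and 46.2% higher, with a median of 0.37. The luminal keratins KRT19 and KRT7 fell from 828 ± 73.1 and 287 ± 45.0 CPM to 0.0301 ± 0.0521 and 0.0958 ± 0.0907 CPM, whereas TBX3, a T-box factor, was at 0 in EV and 57.2 ± 6.94 CPM in the labelled libraries. FOXA1 rose in libraries in which most of the other luminal genes tested fell.

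Luminal progenitor genes were tested 3 times in Hs578T, with 2 higher, where 2.9% of all genes were higher. ALDH1A3, the aldehyde dehydrogenase behind much of the ALDH activity used in the sort, rose from 289 ± 8.35 to 706 ± 4.32 TPM, so that its rise is not independent of the gate. TNFRSF11A, the receptor RANK, rose from 11.4 ± 0.371 to 16.0 ± 0.398 TPM. In HCC70 1 of 10 was called, the receptor KIT, which fell from 13.2 ± 0.256 to 8.63 ± 1.19 TPM. In the labelled KIF20A OE libraries 2 of 7 were higher and 3 lower, where 46.2% of all genes were higher and 23.4% lower.

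Of the other basal and myoepithelial genes, 5 of 15 were lower and 1 higher in Hs578T BCSCs, with a median of -0.11 against -0.01 over all genes, where 4.26% of genes were lower and 2.9% higher. The contractile genes ACTA2 and TAGLN fell from 7.93 ± 0.625 to 4.78 ± 0.675 TPM and from 22.5 ± 0.798 to 16.1 ± 1.93 TPM, and the surface peptidase MME fell from 5.91 ± 0.513 to 3.74 ± 0.325 TPM. LAMA3, a laminin chain, rose from 3.28 ± 0.207 to 4.96 ± 0.112 TPM. TP63 was lower in the same BCSC libraries by the count tests without a minimum. A link between TP63 and the genes of this list was not tested. In HCC70 2 of 20 were higher, among them P-cadherin (CDH3), and 1 was lower, KRT6B. In the labelled KIF20A OE libraries 10 of 18 were lower and 6 higher, with a median of -1.25. LAMB3 fell from 1158 ± 49.4 to 5.10 ± 3.23 CPM and ITGB4 from 562 ± 117 to 6.53 ± 0.346 CPM, and the desmosomal gene DSC3 rose from 0.0322 ± 0.0558 to 56.4 ± 27.7 CPM.

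Mesenchymal and claudin-low genes in Hs578T gave 3 lower and 1 higher call among 12, the factor SNAI2 falling from 89.9 ± 2.15 to 59.0 ± 1.38 TPM and the kinase AXL rising from 678 ± 11.8 to 789 ± 34.3 TPM. In HCC70 0 of 5 were called with limma (0 at an unadjusted p under 0.05). Neural crest and melanocyte genes, listed for SOX10, gave 0 of 2 in Hs578T (0 unadjusted), 1 of 5 higher in HCC70 (ERBB3 again) and 2 higher and 1 lower of 5 in the labelled KIF20A OE libraries, where FOXD3 rose from 1.55 ± 1.13 to 21.8 ± 6.94 CPM. The kidney and HEK293 list had 1 gene tested in each sorted line and 3 in the depletion experiment, with no call. In the depletion experiment limma called 0 genes of every list, with 0 to 2 per list at an unadjusted p under 0.05.

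**Figure D4:**
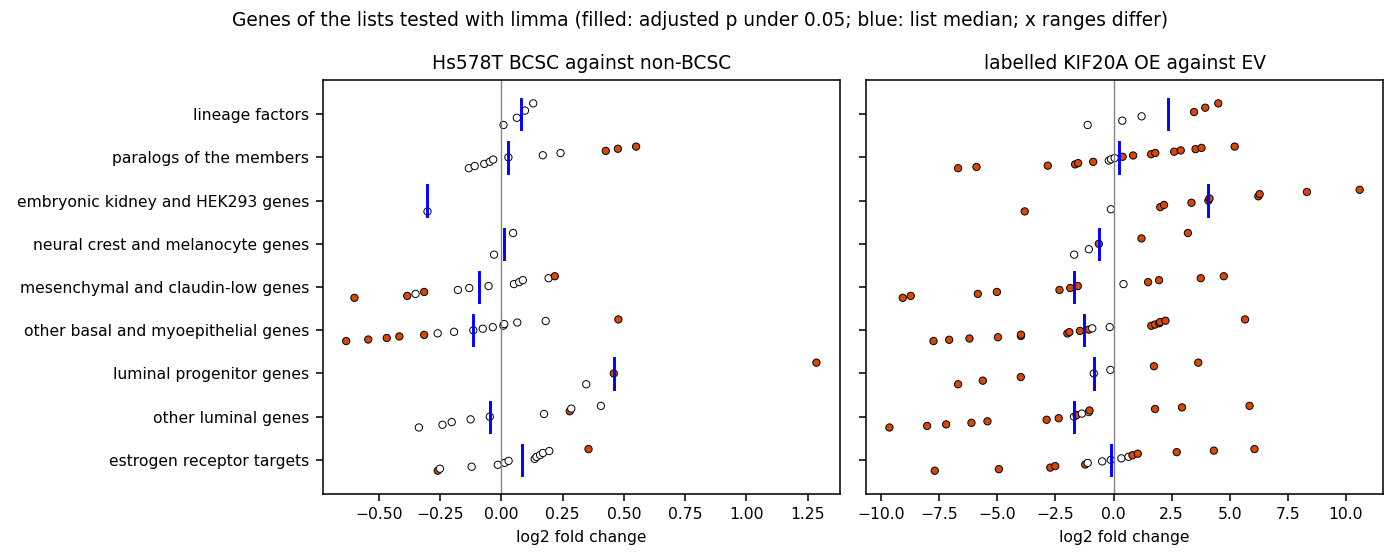
Limma log2 fold changes (x axes, ranges differ) of the genes tested in each list and of the lineage factors (rows), in Hs578T BCSCs against non-BCSCs (left) and in the libraries labelled KIF20A OE against EV (right); filled points have an adjusted p under 0.05 and blue lines are medians. In the right panel the kidney and HEK293 list has a median of 4.08 and the other luminal and the mesenchymal lists have medians of -1.70.

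Paralogs showed which relatives accompany the factors in each line. Of the FOXA relatives, FOXA2 fell from 73.4 ± 8.52 to 0.245 ± 0.144 CPM in the labelled KIF20A OE libraries, the opposite direction to FOXA1, and at 1.54 scaled reads in sgCtrl. FOXA3 was below 1 in every condition. In Hs578T, FOXC2 had 13.6 ± 0.713 TPM in non-BCSCs against 19.5 ± 3.54 TPM in BCSCs, and it rose in the labelled KIF20A OE libraries by 2.61 on the log2 scale. Among the GATA factors, GATA2 and GATA6 were higher in Hs578T BCSCs (25.0 ± 0.665 to 34.0 ± 2.83 TPM and 22.9 ± 1.35 to 34.2 ± 5.21 TPM), where GATA3 showed no call. In Hs578T, 3 of 11 paralogs tested were higher and none lower, where 2.9% of all genes were higher and 4.26% lower. The calls of FOXC2 and GATA6 were lost in 4 of 6 refits with 1 library left out. GATA4 was at 0 in EV and 36.2 ± 1.67 CPM in the labelled KIF20A OE libraries, GATA2 rose there by 2.89 and GATA6 fell by 0.88 on the log2 scale.

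For EN1, the relative EN2 had no row in the sorted lines, was at 4.65 and 4.44 scaled reads in sgCtrl and KIF20A sg1, and rose from 3.57 ± 1.71 to 62.5 ± 25.3 CPM in the labelled KIF20A OE libraries. The SOX10 relatives SOX8 and SOX9 went opposite ways there, SOX8 from 0 to 10.8 ± 2.65 CPM and SOX9 from 327 ± 34.3 to 45.0 ± 4.13 CPM. Of the ETS relatives of ELF5, EHF fell from 112 ± 41.9 CPM to 0.0301 ± 0.0521 CPM in the labelled libraries, ELF2 rose by 0.84 on the log2 scale, and ELF1 and ELF4 were not called. ELF3 and EHF, epithelial ETS factors, were at 478 and 111 TPM in HCC70 non-BCSCs, and at 0 and 0.0510 TPM in Hs578T non-BCSCs. TP73, a TP63 relative, rose by 1.62 on the log2 scale in the labelled libraries.

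Among nuclear receptors, in the labelled KIF20A OE libraries the glucocorticoid receptor NR3C1 fell by 1.52, ESR2 fell by 1.66 and ESRRG rose by 1.80 on the log2 scale, and ESRRA was not called. Over all paralogs, 9 of 18 were higher and 6 lower in those libraries, with a median of 0.22. Of all genes tested there, 46.2% were higher and 23.4% lower, with a median of 0.37. In HCC70 0 of 13 and in the depletion experiment 0 of 14 paralogs were called by limma (3 and 2 at an unadjusted p under 0.05).

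Many list calls in the sorted lines were lost when 1 library was left out. In HCC70, CDH3, ERBB3 and PRLR lost their limma calls in each of 6 refits, KIT in 5, and KRT6B and STC2 in 4. Without HCC70 BCSC replicate 1 all 6 of these calls were lost, with adjusted p from 0.10 to 0.18. In Hs578T, AXL and KRT18 lost theirs in 5 of 6 refits, FOXC2 and GATA6 in 4, and IGFBP4 and TAGLN in 3, with adjusted p of up to 0.15. Each Hs578T library other than BCSC replicate 2 ended at least 1 of these calls. The calls of STC2, ALDH1A3, TNFRSF11A, ACTA2, MME, LAMA3, SNAI2 and GATA2 in Hs578T held in 6 of 6 refits.

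The genes whose levels most resembled each factor over the 8 condition means were named by Pearson's r on log2(RPM + 1), among 10893 or 10894 candidates with at least 10 RPM in some condition. ESR1 was followed by SPTSSB (r = 0.9988), LYPD5 and FAT2, all highest in HCC70. FOXA1 was followed by DSC3 (r = 0.9977), TIPRL and KIAA0040, and DSC3 was at 576 RPM in HCC70 non-BCSCs, 56.4 in the labelled KIF20A OE libraries and 0.0322 in EV. EN1 was followed by TSPAN7 (r = 0.9996), TUBB4A and PKNOX2. FOXC1 was nearest to ZNF213 (r = 0.9916), RIOK1 and NR6A1, and GATA3 to LPAR2 (r = 0.9872), PDXK and KAZN. TP63, whose EV mean rests on 1 library, was nearest to RAB20 (r = 0.9721), MOB3C and CNN3. The points share cell line, table and library, and the 8 conditions amount to few independent sources, so these values are a description. PGR, SOX10 and ELF5 were not listed in all tables and were left out. Among the members, ESR1 and FOXA1 had r = 0.89, and TP63 and EN1 had r = -0.84.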

How the data were processed

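RNA from 24 cell line libraries was sequenced after poly-A selection with a stranded kit. The submitters' processing notes name HISAT2 2.0.5, featureCounts 1.5.0-p3 and GRCh38, and whether counting used strand is not given in the sources used here. The authors deposited TPM values for the Hs578T and HCC70 libraries and CPM values for the overexpression experiment. For the depletion experiment they deposited a signal named CPM, reads divided by a library factor. Whole reads were recovered from the spacing of the deposited values (tolerance 0.004 reads; 100.0% of values came out whole), and on simulated data the method returned 98.45% of Hs578T, 97.66% of HCC70 and 100.0% of the other counts exactly. In Hs578T and HCC70 each gene was solved alone, and the smallest whole counts that fit were taken. Counts of a gene that share a common factor were therefore divided by it. Recovered totals per library ran from 28189500 to 33715701 reads for Hs578T and from 24681218 to 33559417 for HCC70. They ran from 41424338 to 51018667 for the depletion and from 15971297 to 22182293 for the overexpression experiment.

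Each experiment was tested on log2(value + 1) with limma 3.58.1, keeping genes whose mean over its 6 libraries reached 1, with Benjamini-Hochberg adjustment over all genes tested. Fractions were compared between lines by an interaction term over the sorted libraries. EdgeR 4.0.16 and DESeq2 1.42.0 were run on recovered reads. In simulated data limma found 99 of 100 genes changed 2-fold in Hs578T (13324 genes) and 100 of 100 in each other experiment, and 5.69%, 9.09%, 3.85% and 4.31% of its calls in Hs578T, HCC70, depletion and overexpression were false. The simulation gave all genes and experiments the same fixed scatter and changed only genes with a mean of at least 100 reads. It cannot show what limma could find in the more variable depletion libraries or for genes with few reads. Replicates were described as biological triplicates. The KIF20A sg1 columns could be tied to their group but not to single samples.

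Members and lists were chosen with earlier results of these data known. All members were described. Of each list, up to 3 genes with the largest rise and 3 with the largest fall among those with an adjusted p under 0.05 could be named, with every paralog at a mean of at least 1 in some condition and, for each member with a condition mean of at least 1 CPM, the 3 genes of highest r. The 8 lists were estrogen receptor targets, other luminal, luminal progenitor, other basal and myoepithelial, mesenchymal and claudin-low, neural crest and melanocyte, embryonic kidney and HEK293 genes, and paralogs. Exon lengths, used for levels per length in the MDA-MB-231 experiments, and overlaps came from GENCODE 44. Alternatives were a pseudocount of 0.1, no minimum or one of 0.25, median-of-ratios scaling, a replicate block, leaving out each library, and both count tests. Count tests without a minimum, also with libraries left out, were chosen after seeing the data. Single values of some genes of the lists are not reported here.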

Additional observations from a re-analysis of the deposited data

How the results depend on the processing

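The calls of EN1, FOXA1 and FOXC1 in the libraries labelled KIF20A OE held under every alternative run there. Of the members, 3 were called by limma, 4 by edgeR or DESeq2 with the minimum (TP63 added) and 5 by edgeR without it (PGR added). With 1 library left out the number was 3 to 3 with limma and 3 to 4 with edgeR without a minimum. Over all 15265 genes limma called 7055 higher and 3579 lower, edgeR 5099 and 4832, and DESeq2 5230 and 4955. Without the minimum edgeR called 6528 higher and 5649 lower of 23792. In Hs578T 0 members were called with the minimum, 1 by limma or DESeq2 without it (TP63) and 2 by edgeR without it (PGR and TP63), where leaving out libraries gave 1 to 2. In HCC70 the number was 0 by limma and 1 (FOXA1) by DESeq2 with or without the minimum and by edgeR without it, and leaving out libraries gave 0 to 0 with limma, as in Hs578T, the depletion experiment and the test between lines. Limma with a minimum of 0.25 called 0 members in Hs578T, TP63 included (adjusted p = 0.098). Of the members with a reported fold change, those near 0 changed sign when libraries were left out. With all libraries kept, SOX10 in the labelled KIF20A OE libraries was 0.05 with limma without a minimum or with one of 0.25. It was -0.05 with edgeR and -0.02 with DESeq2. ELF5 in Hs578T, at 2 recovered reads or fewer, also changed sign between tools. In Hs578T, EN1 ranged from -0.0585 to 0.0809 with limma and was -0.0338 and -0.0668 with edgeR without a minimum, without non-BCSC replicate 2 and BCSC replicate 2. In HCC70, ESR1 ranged from -0.1387 to 0.02, GATA3 from -0.138 to 0.0032 and FOXC1 from -0.0985 to 0.061. In the depletion experiment, FOXC1 ranged from -0.1002 to 0.0805 and TP63 from -0.3602 to 0.0757. GATA3 in the labelled KIF20A OE libraries was as low as -0.1087 and -0.1744 with edgeR without a minimum, and between the lines EN1 ranged from -0.1368 to 0.0027 and ESR1 from -0.1397 to 0.0189. Same-numbered libraries showed no steady tendency to deviate together (r from -0.23 to 0.31). With 3 libraries per group this check cannot show whether libraries of the same number were handled together. With the replicate block 0, 0, 3 and 0 members were called in Hs578T, HCC70, the labelled KIF20A OE libraries and between the lines. No paired analysis was possible for the depletion experiment because its KIF20A sg1 columns carry no sample number. Of the list genes named, limma without a minimum ended the calls of AXL, FOXC2, GATA6 and KRT18 in Hs578T and of CDH3, ERBB3, KIT and PRLR in HCC70 (adjusted p from 0.051 to 0.10). Over all genes, 386 higher and 567 lower calls in Hs578T became 144 and 198 without non-BCSC replicate 2, 154 and 240 without BCSC replicate 1 and 220 and 267 without non-BCSC replicate 1. In HCC70, 301 and 73 became 22 and 10 without BCSC replicate 1, and at most 185 and 62 without any other single library. Counts of 3 recovered reads or fewer limit EN1 in HCC70, ELF5 in HCC70 BCSCs, and ESR1, PGR and EN1 in EV to upper bounds. The same holds for 6 members in sgCtrl and 5 in KIF20A sg1. ELF5 in Hs578T, whose recovered counts may be too small by a common factor, was near the floor too.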
